A study of Mus musculus with 37 samples.

Results

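The mitochondrial ribosomal protein genes were described here in mouse oocytes and 2-cell embryos, as every gene whose symbol starts with Mrpl or Mrps and a number. The rule took 82 genes in each of 4 RNA-seq tables, which list 25053, 19033, 24305 and 15855 genes, and the rule reads the symbol and no measured value. Of the 82, 78 are coding genes and 4 are processed pseudogenes, namely Mrpl23-ps1, Mrpl48-ps, Mrps36-ps1 and Mrps36-ps2. They lie on 17 chromosomes.

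The mitochondrial ribosome is built from 2 ribosomal RNAs, which the mitochondrial genome encodes, and from proteins that are encoded in the nucleus and imported. It translates only the few mitochondrial mRNAs, which encode membrane subunits of the respiratory chain and the ATP synthase. A large subunit joins the amino acids, a small subunit reads the mRNA, and both contain descendants of bacterial ribosomal proteins next to proteins that arose in mitochondria. Oocytes carry a large store of mitochondria into the embryo, and the early embryo first relies on transcripts laid down by the mother before it starts to transcribe its own genome at the 2-cell stage. By their known place in the ribosome, 51 of the coding genes belong to the large subunit and 26 to the small subunit. Mrps36 is set apart because its product is now assigned to the 2-oxoglutarate dehydrogenase complex, and the proteins of Mrps30 and Mrps18a sit in the large subunit in spite of their names.

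The study asked what the Hira complex, a histone H3.3 chaperone made of Hira, Cabin1 and Ubn1, does in the oocyte. ZH oocytes carry floxed Hira and CabZ oocytes carry floxed Cabin1, in both lines with a Zp3-Cre transgene, which is active in growing oocytes, on a C57BL/6 background. ZH Het and CabZ Het controls carry the same Cre and 1 floxed allele, so Cre itself is shared by control and KO. Fully grown germinal vesicle (GV) oocytes of both lines and 2-cell embryos of the CabZ line were sequenced with 4 libraries a genotype. In a further experiment, C57BL/6 oocytes were injected with GFP RNA (4 libraries) or Zscan4d RNA (Zscan4 OE, 3 libraries) then matured, activated without fertilisation and taken at the 2-cell stage. The study's design and methods speak of pooled oocytes or embryos for each library, while the labels' protocol speaks of individual cells, and the ages of the females are not given. Nothing says that libraries came from separate animals, so every p-value measures only the spread between libraries. In libraries of pooled cells, fewer cells and less RNA per cell cannot be told apart.

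Reads on listed genes ran from 5819315 to 21869858 per library. Hira had 2 to 14 reads in ZH Het and 0 to 13 in ZH KO oocytes, which checks nothing. Cabin1 had 117 to 209 reads in CabZ Het and 14 to 57 in CabZ KO oocytes, and 215 to 443 against 44 to 125 in 2-cell embryos (p = 0.0286 in both, two-sided exact permutation test, the smallest p it can give). Zscan4d was not higher in the libraries labelled Zscan4 OE, at 70.3 to 84.3 FPKM against 69.4 to 149 FPKM with GFP (exact permutation p = 0.229). The study itself reported more Zscan4 after the injection than in an uninjected group, by qRT-PCR, immunofluorescence and western blot. Oocyte markers such as Zp3 and Gdf9 were present in every group, with no listed marker at 0.

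Members are given as FPKM, fragments per kilobase of gene span and 1000000 reads. A gene was tested with limma on log2(FPKM + 1) if its mean was at least 1 FPKM, over all such genes of its table, and called at an adjusted p under 0.05. The fold changes are on that scale and understate the change of low genes.

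The levels of the family spanned a wide range. Counted per kilobase of exon and 1000000 reads in the control libraries, ZH Het oocytes had most RNA of Mrps33 (377), Mrpl34 (226), Mrpl18 (224), Mrpl48-ps (222) and Mrpl14 (154), around a median of 32.3 over the members tested. Of the members tested, the lowest were Mrps26 (3.38), Mrps10 (2.29) and Mrps34 (1.67), all of the small subunit. Some members under the level tested were lower still. CabZ Het oocytes gave the same 2 genes at the top, Mrps33 (480) and Mrpl34 (346). The same 3 were lowest of the members tested, down to 0.626 for Mrps34. In CabZ Het 2-cell embryos the order was another: Mrpl34 (486), Mrpl41 (307), Mrpl40 (156), Mrpl18 (143) and Mrps14 (120) led. GFP embryos were led by Mrps33 (448), Mrps14 (348), Mrpl53 (305) and Mrps21 (300).

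The largest difference in the family was that between CabZ KO and CabZ Het 2-cell embryos. Of 70 members tested, 46 fell and 5 rose, against 30.9% of all tested genes that fell and 25.2% that rose. The median member was lower by 0.92 on the log2 scale, while the median over all genes was −0.11. With the table values as deposited, which test 36 members, 9 fell and 7 rose, at medians of −0.25 for the members and 0.39 for all genes. The shares of all genes called in that setting are not given, so these counts have no background beside them. The fall took in both subunits, with 34 of 45 large-subunit and 12 of 20 small-subunit genes lower, and both ages of protein, with 24 of 38 genes that have a bacterial counterpart and 22 of 27 that have none. Summed over the 82 rows, the family held 4872 to 7341 rpm (reads per 1000000 reads on listed genes) in Het and 3901 to 4161 in KO embryos, so that every Het library lay above every KO library. The groups did not overlap for 47 of the 70 members, and for 51.0% of all genes tested.

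**Figure D1:**
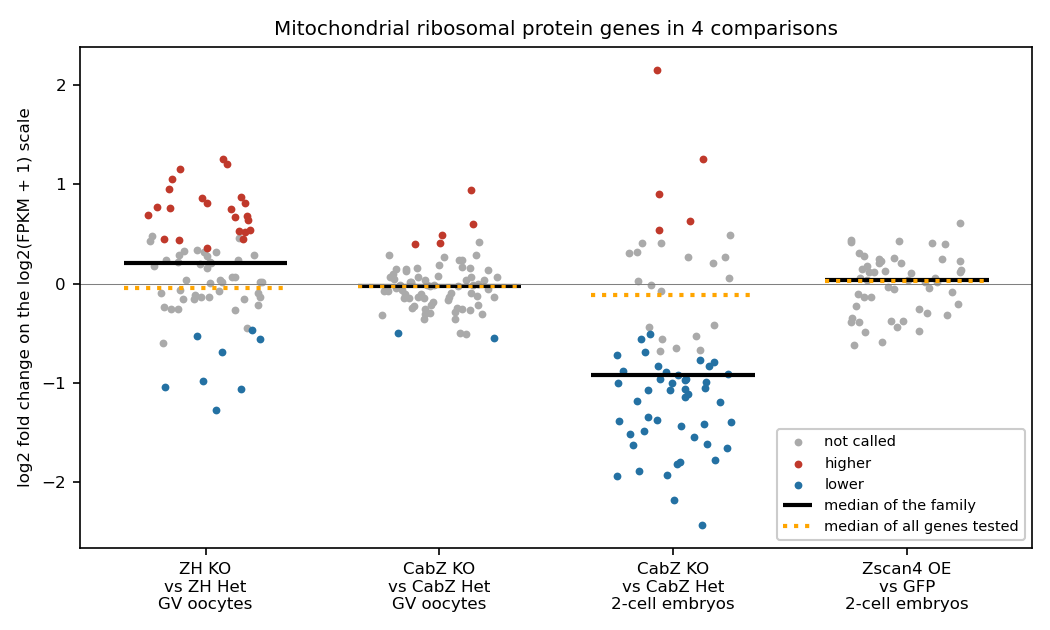
Log2 fold change of each mitochondrial ribosomal protein gene tested (points) in the 4 comparisons, coloured by the call, with the median of the members and of all genes tested in each. In CabZ 2-cell embryos the members lie around −0.92, in the other comparisons around 0.21, −0.02 and 0.04.

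The RNAs of Mrpl20 and Mrpl12, of the large subunit, had the largest falls of the members tested. Mrpl20, whose bacterial counterpart is needed to assemble the large subunit, had 13.3, 27.9, 29.9 and 17.4 FPKM in the Het libraries and 3.62, 2.68, 4.61 and 1.94 FPKM in the KO libraries. The Het mean was 22.1 ± 8.04 and the KO mean 3.21 ± 1.16 FPKM (SD, n = 4), and limma put the log2 fold change at −2.43 (SE 0.303, adjusted p = 0.000323). Even the lowest Het library was above the highest KO library by a wide margin. Mrpl12, the stalk protein that helps translation factors onto the ribosome, had 17.6, 36.2, 47.0 and 31.6 FPKM in Het and 10.4, 4.45, 7.77 and 3.82 FPKM in KO (log2 fold change −2.17, SE 0.357, limma adjusted p = 0.001). Mrpl28 fell by 1.93, Mrpl43 by 1.92 and Mrpl22, at the exit tunnel of the nascent chain, by 1.88 on the log2 scale. Mrpl43 was at 61.5, 115, 85.5 and 98.4 FPKM in Het and at 36.5, 33.0, 23.2 and 8.78 FPKM in KO embryos. In all 5 of these genes KO replicate 4 was the lowest library. Leaving out any single library left between 41 and 49 members lower.

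Among the genes without a bacterial counterpart, Mrpl49 had 23.9, 27.9, 30.6 and 24.1 FPKM in Het and 7.85, 8.44, 6.48 and 5.25 FPKM in KO embryos (log2 fold change −1.80, SE 0.190, limma adjusted p = 0.000217), with little spread in either group. Mrpl54 fell by 1.78, Mrpl41 by 1.41 and Mrpl40 by 1.37 on the log2 scale. Mrpl34, the family member with most RNA per exon length at this stage, had 291, 410, 425 and 368 FPKM in Het and 127, 133, 163 and 143 FPKM in KO embryos, a fall of 1.39. Other members with much RNA per exon length did not fall: Mrpl18 went from 143 in Het to 179 in KO embryos and Mrps14 from 120 to 146 on that scale, neither past the test, and Mrps33 (103 to 193) rose. Mrps30 and Mrpl44, the latter with a fold like that of an RNA-cutting enzyme, fell by 1.18 and 0.83.

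In the small subunit, Mrps22 had 5.89, 11.97, 11.4 and 11.3 FPKM in Het and 2.59, 2.23, 2.58 and 1.16 FPKM in KO embryos (log2 fold change −1.81, SE 0.265, limma adjusted p = 0.000592). Het replicate 1 was the lowest control for Mrps22 and for many other members. For Mrps22 it was above all KO libraries, but for Mrpl21, Mrpl37 and Mrps24, which also fell, it was not. Mrps15 fell by 1.65, Mrps7 by 1.62, Mrps34 by 1.55, Mrps26 by 1.38, Mrps18b by 1.05, Mrps17 by 0.92 and Mrps12, of the decoding centre, by 0.88 on the log2 scale. For Mrps34 the Het libraries gave 8.02, 29.0, 26.9 and 15.4 FPKM and the KO libraries 7.24, 6.35, 6.99 and 2.53 FPKM, so the lowest control came close to the KO group. Mrps2 (log2 fold change −0.02), Mrpl11 (−0.44), Mrps18c (−0.65, limma adjusted p = 0.157), Mrpl18 (0.31) and Mrps14 (0.27) did not pass the test.

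Of the 5 rows that rose, 2 were Mrpl48 and its pseudogene. Mrpl48 had 1.56, 0.741, 1.33 and 1.05 FPKM in Het and 3.65, 3.58, 4.15 and 5.26 FPKM in KO embryos (log2 fold change 1.25, SE 0.191, limma adjusted p = 0.000708). Mrpl48-ps had 54.1, 16.2, 43.4 and 27.1 FPKM in Het and 123, 134, 144 and 189 FPKM in KO embryos, a rise of 2.15. The other rows are small-subunit genes and Mrps36. Mrps33 had 11.5, 15.8, 26.9 and 20.3 FPKM in Het and 30.1, 30.4, 30.0 and 49.6 FPKM in KO embryos, a rise of 0.90 (SE 0.281, limma adjusted p = 0.021) that was lost without KO replicate 4 or Het replicate 2, with an adjusted p of at most 0.0551 over all alternatives run. Mrps25 rose by 0.63 and Mrps36 by 0.54, and the call of Mrps36 was lost in 6 of the 8 fits that left out 1 library.

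**Figure D2:**
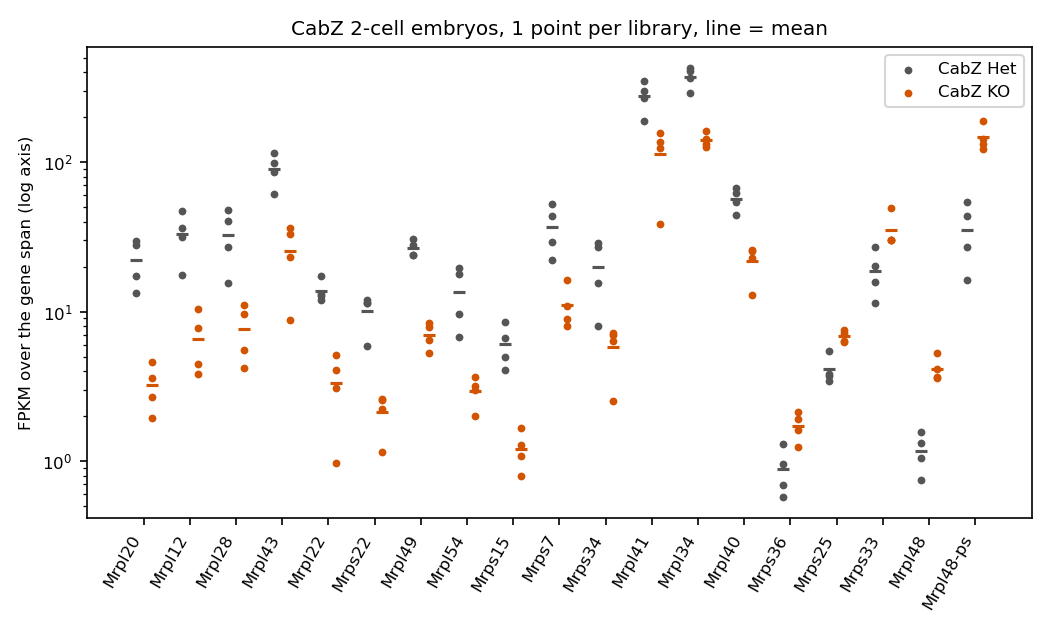
FPKM on a log axis of named members in each CabZ Het and CabZ KO 2-cell library (points) with the mean of each group (line). The members that fell, such as Mrpl20 and Mrps22, have all Het libraries above all KO libraries, and Mrpl48 and Mrpl48-ps the reverse, while the groups overlap for Mrps36.

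A further 12 members were under 1 FPKM in this table and were given the exact permutation test, whose smallest p is 0.0286. Mrpl14, Mrps27, Mrps31 and Mrps5 were higher and Mrpl33 and Mrps28 lower in every KO library than in any Het library (p = 0.0286 each, two-sided exact permutation test). These p-values are not adjusted over the 12 members. The share without overlap among other genes under 1 FPKM is not given, and it was 51.0% over all genes tested. Reads were fewest for Mrps5, with 1 to 12 per Het and 9 to 17 per KO library. Of the RNAs that the proteins surround, mt-Rnr2 of the large subunit had 5205 to 7055 FPKM in Het and 1329 to 3138 FPKM in KO embryos (log2 fold change −1.25, SE 0.284, limma adjusted p = 0.00486), and mt-Rnr1 of the small subunit did not pass the test (−0.24, adjusted p = 0.461). In GV oocytes neither RNA passed the test between CabZ KO and CabZ Het (log2 fold change 0.22 for mt-Rnr1 and −0.21 for mt-Rnr2). By the study's methods the libraries were made from captured mRNA. The reads of mt-Rnr1 and mt-Rnr2 therefore do not measure the amount of ribosomal RNA.

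Other measures moved with the genotype in these embryos. The summed oocyte markers were at 1821 to 3109 rpm in Het and 4251 to 7524 in KO embryos, with all 10 listed and none at 0. The blood and macrophage markers, 5 of 6 listed, summed to 46.0 to 101 in Het and 101 to 894 in KO embryos, the latter through Lyz2 with 49 to 4758 reads per KO library. Their part in the fall of the family was not tested.

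CabZ KO GV oocytes differed little from CabZ Het oocytes in this family. Of 76 members tested, 5 rose and 2 fell, against 8.2% of all genes that rose and 5.73% that fell, and the median member (−0.02) was at the median over all genes (−0.02). With the table values as deposited, 1 rose and 3 fell of 50, and the shares of all genes called in that setting are not given. The 4 coding genes that rose are all of the small subunit and have no bacterial counterpart, and no large-subunit gene rose among 49 tested. The summed family was at 9275 ± 369 rpm in Het and 9278 ± 946 in KO oocytes (SD, n = 4).

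Mrps34 had 0.484, 0.462, 0.535 and 0.684 FPKM in Het and 1.99, 2.32, 1.56 and 1.99 FPKM in KO oocytes (log2 fold change 0.94, SE 0.108, limma adjusted p = 0.000543). These are 12 to 17 reads per Het and 36 to 51 per KO library. Mrps35 had 3.16 to 3.48 FPKM in Het and 4.21 to 5.97 FPKM in KO oocytes, a rise of 0.49 (limma adjusted p = 0.0146). Mrps26 rose by 0.60, Mrps27, a protein with repeats that bind RNA, by 0.40, and Mrpl48-ps by 0.41, and each of these 3 calls was lost in 5 or 6 of the fits that left out 1 library. Mrps17, which binds ribosomal RNA early in assembly in bacteria, had 35.5, 36.7, 33.2 and 35.8 FPKM in Het and 24.4, 19.7, 26.4 and 25.1 FPKM in KO oocytes (log2 fold change −0.55, SE 0.111, limma adjusted p = 0.00948). Mrpl11, at the base of the stalk, fell by 0.49 (limma adjusted p = 0.0219), a call that was lost without Het replicate 1 or Het replicate 4 (adjusted p of at most 0.0789 over all alternatives run). Only Mrps34, Mrps35 and Mrps17 of these 7 kept the call under every alternative that tested them, the fold threshold aside. None of the 7 passed a fold change above 2. The groups did not overlap for 13 of the 76 members, and for 20.6% of all genes tested. Of 6 members under 1 FPKM, Mrps9 was higher in every KO library (0.433 to 0.466 against 0.316 to 0.384 FPKM, exact permutation p = 0.0286, not adjusted).

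ZH KO GV oocytes showed more calls, in both directions. Of 75 members tested, 23 rose and 8 fell, where 25.6% of all genes rose and 26.3% fell. The median member was at 0.21 and the median over all genes at −0.04. With the libraries scaled to a common median the split was 18 higher and 12 lower, with medians of 0.06 and −0.19 for the members and for all genes. The shares of all genes called in that setting are not given. Without pseudogenes, their parents and members whose exons overlap another gene, 10 of 40 rose and 6 fell. The summed family was at 7729 ± 700 rpm in Het and 10615 ± 1253 in KO oocytes (SD, n = 4), with every KO library above every Het library.

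The fall was largest for Mrps2, of the small subunit, with 13.6, 14.8, 12.1 and 10.46 FPKM in ZH Het and 2.57, 5.38, 6.88 and 4.73 FPKM in ZH KO oocytes (log2 fold change −1.27, SE 0.228, limma adjusted p = 0.00153). Mrpl2, near the centre that joins amino acids, fell by 1.06, with 13.03 to 17.8 FPKM in Het and 4.53 to 9.67 FPKM in KO. Mrpl39 had 3.59, 3.09, 2.98 and 3.98 FPKM in Het and 1.11, 1.06, 1.32 and 1.07 FPKM in KO oocytes, a fall of 1.04 (SE 0.119, limma adjusted p = 0.00013). The 4 KO libraries of Mrpl39 lay close together, well under the controls. Mrpl53 fell by 0.98, Mrpl10, which holds the stalk, by 0.68, Mrpl38 by 0.56, Mrps18a by 0.53 and Mrps17 by 0.47, and the call of Mrps17 was lost without Het replicate 3 or Het replicate 4 (adjusted p of at most 0.147 over all alternatives run).

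Mrps34 rose most, with 0.929, 0.467, 1.36 and 1.53 FPKM in Het and 3.39, 3.97, 3.24 and 4.94 FPKM in KO oocytes (log2 fold change 1.26, SE 0.191, limma adjusted p = 0.000639). Mrpl41 had 22.0, 19.4, 29.7 and 30.2 FPKM in Het and 64.4, 48.2, 60.9 and 62.5 FPKM in KO oocytes, a rise of 1.20. In neither gene did the groups come near each other. Mrpl48 and Mrps26 rose by 0.87, Mrps36 and Mrpl16 by 0.81, Mrpl50 and Mrpl43 by 0.77 and Mrps35 by 0.75 on the log2 scale. All 4 pseudogene rows rose, Mrps36-ps1 by 1.16, Mrps36-ps2 by 1.05, Mrpl48-ps by 0.95 and Mrpl23-ps1 by 0.45, the last lost in 6 of the 8 fits that left out 1 library. By subunit, 12 large-subunit genes rose and 6 fell of 48 tested, and 6 small-subunit genes rose and 2 fell of 22. Mrpl12 (26.5 ± 3.47 against 22.7 ± 4.41 FPKM, SD, n = 4), Mrpl40, Mrps22 (log2 fold change −0.13), Mrps30 (−0.45) and Mrps18b (0.29) did not pass the test. The groups did not overlap for 31 of the 75 members, and for 46.9% of all genes tested. Under 1 FPKM were 7 members, of which Mrpl33 and Mrps9 were higher and Mrps5 lower in all KO libraries (exact permutation p = 0.0286 each, not adjusted).

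Markers of the 2-cell stage summed to 158 to 223 rpm in ZH Het and 1020 to 1698 in ZH KO oocytes, and to 216 to 233 and 433 to 517 in the CabZ line, with none of the 8 and 6 listed markers at 0. The cumulus and granulosa list stood at 51.8 to 59.7 and 54.1 to 110 in the ZH line and at 56.2 to 70.8 and 96.5 to 138 in the CabZ line. Oocyte markers summed to 21668 to 23668 in ZH Het and 11780 to 23238 in ZH KO oocytes. The part of these in the values of the family was not tested.

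**Figure D3:**
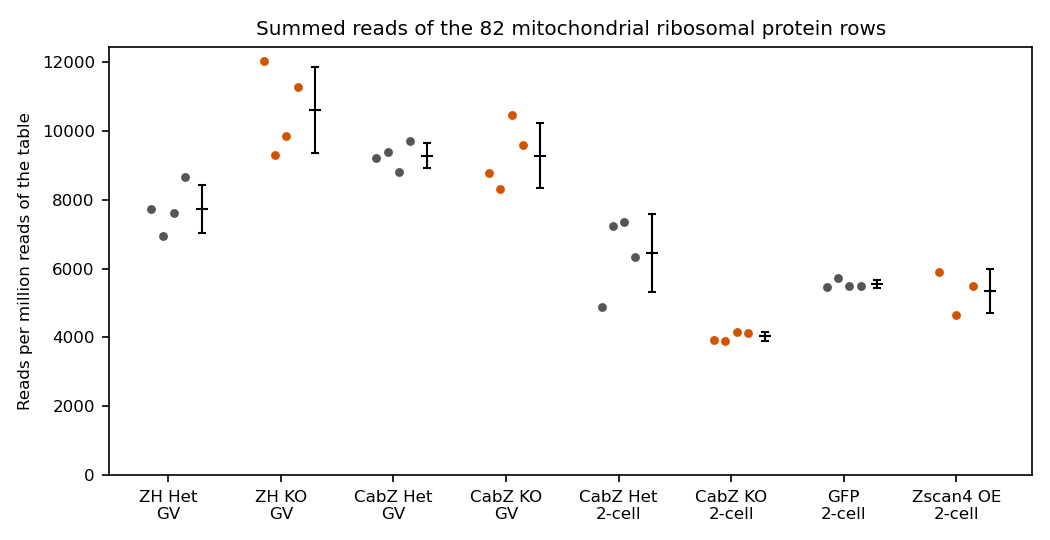
Summed rpm of the 82 rows in each library (points) of the 8 groups, with the mean and SD. ZH KO oocytes lie above ZH Het oocytes, CabZ KO 2-cell embryos lie below CabZ Het embryos, and in the other 2 comparisons the libraries overlap.

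Embryos from the libraries labelled Zscan4 OE showed no call. Of 51 members tested, 0 rose and 0 fell with limma, where 0.0932% of all genes rose and 1.7% fell. An unadjusted limma p under 0.05 was found for 5 of the 51 members and for 850 of all 4293 genes tested. The median member was at 0.04 and the median over all genes at 0.03. Mrpl46 had 1.62, 1.89, 2.09 and 1.27 FPKM with GFP and 1.13, 0.542 and 0.762 FPKM in Zscan4 OE libraries (log2 fold change −0.59, SE 0.175, limma adjusted p = 0.128). Mrpl10 had 1.47, 1.87, 1.90 and 1.54 FPKM with GFP and 2.18, 4.14 and 3.22 FPKM in Zscan4 OE libraries (0.61, adjusted p = 0.133 from limma). Mrpl13 was at −0.49, Mrpl42 and Mrps18c both at −0.38. For these 5 genes the libraries of the groups did not overlap, as for 7 of the 51 members in all and 18.2% of all genes. Mrpl12 had 0.619 to 2.87 FPKM in Zscan4 OE libraries, around the 0.861 to 1.43 FPKM with GFP. Another 31 members were under 1 FPKM in this table, Mrpl20 and Mrps22 among them.

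Across the comparisons, few members were called alike. The ZH and CabZ lines shared 5 rising rows in GV oocytes, Mrps26, Mrps27, Mrps34, Mrps35 and Mrpl48-ps, which are 5 of the 23 in ZH and 5 of the 5 in CabZ oocytes. Mrps17 was the shared fall, 1 of 8 and 1 of 2, and it also fell in CabZ KO 2-cell embryos. Mrpl48-ps rose in all 3 KO comparisons. Of the 69 members tested in both ZH oocytes and CabZ 2-cell embryos, 45 fell in the KO embryos. These held 4 of the 7 that fell in ZH KO oocytes and 11 of the 21 that rose there. The 11 are Mrpl13, Mrpl16, Mrpl20, Mrpl41, Mrpl42, Mrpl43, Mrpl50, Mrpl55, Mrpl57, Mrps26 and Mrps34. Mrpl20, for example, was at 0.67 in ZH oocytes, at −0.07 in CabZ oocytes (limma adjusted p = 0.774) and at −2.43 in CabZ 2-cell embryos. Within the CabZ line itself, Mrps34 and Mrps26 rose in KO oocytes and fell in KO embryos.

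The stages of the CabZ line were set side by side, without a test because their tables were normalised separately. Of 77 members with at least 1 FPKM at either stage in Het, 21 (27.3%) were higher in every 2-cell library than in any GV library and 41 (53.2%) lower in every one, against 36.7% and 36.8% of 8020 genes. All 5 rows that rose in KO embryos are of the latter kind. The same Het embryo libraries enter both the calls in KO embryos and the stage differences, so the 2 are not independent. Mrps33 went from 87.2 FPKM in Het oocytes to 18.6 in Het embryos and was at 35.01 FPKM in KO embryos. Mrps25 went from 29.0 to 4.10 and was at 6.84, and Mrpl48-ps from 266 to 35.2 and was at 148 FPKM. In all 3 the KO embryos lay between the Het oocytes and the Het embryos.

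Of the 46 members that fell in KO embryos, 20 were above and 17 below the oocyte level in Het embryos, and 9 overlapped. Among the 77 members these 3 kinds numbered 21, 41 and 15. Mrpl20 was at 1.88 FPKM in Het oocytes, 22.1 in Het embryos and 3.21 in KO embryos. Mrps34 went from 0.541 to 19.8 in Het and was at 5.78 in KO embryos, and Mrpl43 from 14.8 to 90.2 and was at 25.4 FPKM. Mrpl41, with 41.2, 277 and 114 FPKM, and Mrpl49, with 4.60, 26.6 and 7.005 FPKM, followed the same order. In others the KO embryos were below both: Mrpl12 had 37.6 FPKM in Het oocytes, 33.1 in Het embryos and 6.60 in KO embryos, and Mrps22 had 25.7, 10.2 and 2.14 FPKM. A fall in KO embryos was thus found both in members that are higher after the oocyte stage and in members that are lower, with a larger share among the former. That difference was not tested, since the same Het embryo libraries enter both. Some of the latter members were also under the level tested in embryos.

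**Figure D4:**
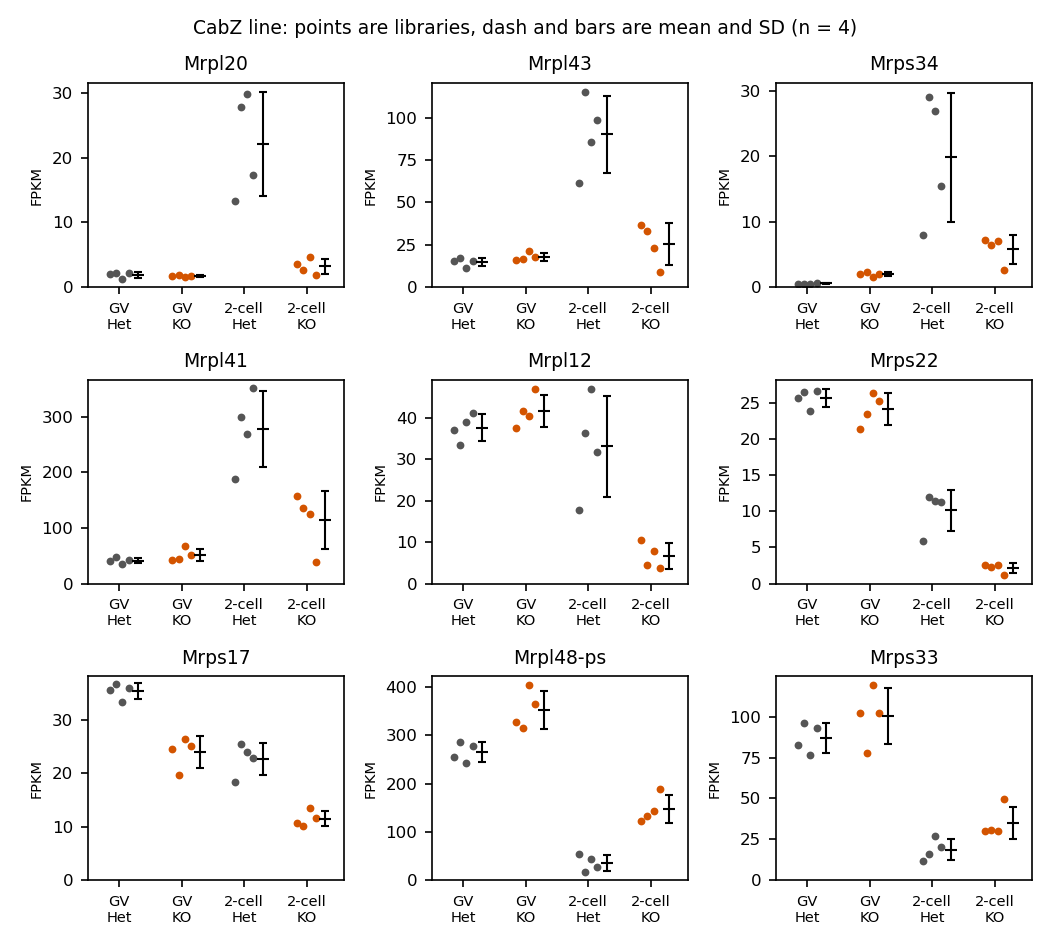
FPKM of 9 members in CabZ Het and CabZ KO GV oocytes and 2-cell embryos, 1 panel a gene with its own linear axis, points for the 4 libraries and a dash with bars for mean and SD. Mrpl20, Mrpl43, Mrps34 and Mrpl41 are higher in Het embryos than in Het oocytes and lower in KO embryos, whereas Mrps33 and Mrpl48-ps are lowest in Het embryos.

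The pseudogene rows are nearly identical in sequence to their parents, and how reads that fit both were counted is not given. Mrpl48-ps (chr4:88599175-88599810, minus strand, GRCm38) differs from the transcript of Mrpl48 at 12 of 636 bases. The first 90 coding bases of Mrpl48 and the matching stretch of Mrpl48-ps at chr4:88599721-88599810 (minus strand) are shown because only the bases in capitals, those that differ, can tell a read of one from a read of the other.
Mrpl48: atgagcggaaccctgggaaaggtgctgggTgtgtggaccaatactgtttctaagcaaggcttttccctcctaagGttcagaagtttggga
Mrpl48-ps: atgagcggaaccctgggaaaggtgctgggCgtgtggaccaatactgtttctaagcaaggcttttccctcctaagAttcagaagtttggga

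Mrpl48-ps took 24.0 to 26.0% of the reads of the pair in ZH Het and 23.8 to 25.7% in ZH KO oocytes, where both rows rose. In CabZ oocytes, where the pseudogene row rose and Mrpl48 did not pass the test (log2 fold change 0.29, limma adjusted p = 0.129), it took 25.9 to 26.0% in Het and 26.5 to 28.2% in KO, with no overlap. In CabZ 2-cell embryos, where both rows rose, the share was 18.2 to 26.1% in Het and 25.6 to 27.5% in KO. With GFP it was 25.3 to 25.7%, and in Zscan4 OE libraries 24.5 to 24.99%. Mrpl23-ps1 is identical to the transcript of Mrpl23 over 540 bases and held nearly all reads of that pair in GV oocytes (94.4 to 98.6%), and Mrps36-ps1 and Mrps36-ps2 are 99.3% and 99.0% identical to Mrps36. Which locus these RNAs come from is therefore uncertain.

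Many members have a close neighbour. In 33 of the 78 coding members (42.3%) the start lies within 1000 bases of that of a coding gene on the opposite strand, against 10.9% of 21951 coding genes. In CabZ 2-cell embryos 23 of 30 tested members with such a neighbour fell and 23 of 36 without one, a difference that was not tested. In 12 such pairs both genes were tested there, and the member fell in 8 and both fell in 5, a pair of 2 members being counted once. Mrpl46 and Mrps11, which are themselves a pair with starts 412 bases apart, fell by 1.51 and 1.48. Mrpl49 fell together with Fau, which encodes a protein of the cytoplasmic ribosome (log2 fold change −1.06, limma adjusted p = 0.00511). Mrpl47 fell by 0.56 while its neighbour Ndufb5, of respiratory complex I, rose by 0.64.

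The neighbour of Mrpl40 is Hira itself, with starts 175 bases apart. Mrpl40 had 20.7 ± 3.95 FPKM in ZH Het and 17.3 ± 3.68 FPKM in ZH KO oocytes (SD, n = 4; log2 fold change −0.25, limma adjusted p = 0.273). In CabZ embryos both were lower in KO, Mrpl40 with 44.1, 66.9, 62.2 and 54.2 FPKM against 25.9, 22.998, 25.6 and 12.9 FPKM, and Hira with 143 to 199 reads per Het and 8 to 32 per KO library (exact permutation p = 0.0286).

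Exons of another gene overlap 33 of the 82 rows, and reads could be split between them. For Mrps25, which rose in CabZ KO 2-cell embryos, Nr2c2 overlaps 4590 of the 6576 exon bases. Mrps34 is covered by Nme3 and Mapk8ip3 on chromosome 17. Nme3 was at 0.05 in ZH oocytes and −0.21 in CabZ oocytes, where Mrps34 rose, and rose by 1.29 in CabZ 2-cell embryos, where Mrps34 fell. Mrpl43 overlaps Twnk, the mitochondrial DNA helicase, over 507 bases, and Twnk was at −0.01 in CabZ 2-cell embryos (limma adjusted p = 0.958). Without overlapping members, pseudogenes and their parents, 27 of 36 members fell there and 1 rose, with a median of −0.97.

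Genes that work with the mitochondrial ribosome were compared by lists, which were drawn up with earlier results of these data known. Their counts stand beside the shares of all genes tested, 30.9% lower and 25.2% higher in CabZ 2-cell embryos, 26.3% and 25.6% in ZH oocytes, 5.73% and 8.2% in CabZ oocytes. The 6 genes listed under other symbols, most of them for mitochondrial ribosomal proteins, gave 1 rise and 2 falls among 5 tested in CabZ 2-cell embryos. Aurkaip1 fell by 1.22 and Ptcd3 by 0.46, and Ndufab1, a subunit of complex I rather than of the ribosome, rose by 0.98. In ZH oocytes Ndufab1 (0.57) and Aurkaip1 (0.45) rose and Gadd45gip1 (−0.85) and Dap3 (−0.54) fell, and 0 of 6 were called in CabZ oocytes or in Zscan4 OE embryos. Of the factors that assemble the ribosome or modify its RNA, 5 of 14 fell (35.7%) and 2 rose (14.3%) in CabZ 2-cell embryos, with Rpusd3 (−1.72) and Mpv17l2 (−1.51) the lowest and Ddx28 (1.11) and the methyltransferase Nsun4 (0.94) the higher. Nsun4 was lower in ZH oocytes (−1.10), as was Mtg1 (−0.67), among 4 falls and 2 rises (Mettl17 0.61, Mterf3 0.58) of 13, and in CabZ oocytes Tfb1m (−0.51) was the 1 call of 13. In Zscan4 OE embryos 0 of 6 were called.

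Of the translation factors, Slirp (−1.50), which stabilises mitochondrial mRNA, and Mtif2 (−0.48) fell among 4 tested in CabZ 2-cell embryos, and 3 of 6 fell in ZH oocytes, with Mtif3 (−0.65) and Oxa1l (−0.58) the lowest. The translation factors gave 0 calls of 8 in CabZ oocytes and 0 of 2 in Zscan4 OE embryos. Genes of mitochondrial transcription and DNA maintenance gave 4 falls of 7 in CabZ 2-cell embryos, the most for Ssbp1 (−1.86), which coats single-stranded mitochondrial DNA, and Mterf1a (−1.33). Tfam, which packages mitochondrial DNA, rose in ZH (0.82) and in CabZ oocytes (0.65), the latter as the 1 call of 8. Polrmt, the mitochondrial RNA polymerase, rose by 0.95 and Mterf1b fell by 0.68 in ZH oocytes, among 7 tested, and the list gave 0 calls of 1 in Zscan4 OE embryos. The aminoacyl-tRNA synthetases of mitochondria were mostly under the level tested: 0 were tested in ZH oocytes, and 0 of 1, 0 of 3 and 0 of 1 were called in CabZ oocytes, CabZ 2-cell embryos and Zscan4 OE embryos.

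Promoters of the family were read from 250 bases before to 50 after the start. A promoter window was found for 69 of the 82 rows, 75 windows in all, taken from RefSeq on GRCm38. The motif CCGGAAG of ETS factors, searched on both strands, was in 34.7% of these windows and in 8.86% of 32851 windows of all genes. The YY1 motif AAGATGG was in 17.3% and 6.34%, the NRF1 core CATGCGC in 10.7% and 3.91%, GGGCGG of SP1 in 52.0% and 35.7%, and TATAAA in 6.67% and 13.6%. These windows partly overlap the transcript, and none of the motifs holds another. In CabZ 2-cell embryos 13 of 23 members with the ETS motif fell and 27 of 37 without it. The 120 bases before the start are shown for Mrpl43, Mrps22 and Mrpl34, which fell and hold the ETS motif on this strand, and for Mrpl20, which fell most and holds none of the motifs there. Capitals mark CCGGAAG. The regions are chr19:45006443-45006562 (minus strand), chr9:98601680-98601799 (minus), chr8:71464806-71464925 (plus) and chr4:155802758-155802877 (plus), and each lies outside the annotated span of its own gene.
Mrpl43: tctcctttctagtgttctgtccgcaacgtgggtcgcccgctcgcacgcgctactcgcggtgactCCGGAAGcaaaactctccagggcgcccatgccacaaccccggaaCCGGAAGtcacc
Mrps22: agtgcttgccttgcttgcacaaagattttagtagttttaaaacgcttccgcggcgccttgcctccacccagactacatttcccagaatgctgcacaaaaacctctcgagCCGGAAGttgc
Mrpl34: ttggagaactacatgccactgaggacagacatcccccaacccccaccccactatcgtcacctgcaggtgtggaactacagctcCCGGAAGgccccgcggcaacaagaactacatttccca
Mrpl20: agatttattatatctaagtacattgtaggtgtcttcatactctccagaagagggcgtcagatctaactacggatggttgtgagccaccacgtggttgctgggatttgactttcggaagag

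The CCGGAAG run begins 56 and 12 bases before the start in Mrpl43, 11 in Mrps22 and 37 in Mrpl34. Open chromatin at the starts was read from ATAC-seq peaks of CabZ GV oocytes, 3 libraries a genotype. A peak within 500 bases of the start was found for 13, 26 and 53 of the 78 coding members in the Het libraries A, B and C, which is 16.7%, 33.3% and 67.9%, against 8.59%, 17.6% and 32.3% of all coding genes. In the KO libraries it was 22, 5 and 4 members, or 28.2%, 6.41% and 5.13%, against 12.4%, 3.75% and 4.91% of all genes. The libraries of each genotype spread widely and their ranges overlapped, and the total number of peaks varied as well, from 43399 to 111327 in Het and from 19160 to 46070 in KO. With 3 libraries a genotype a permutation test cannot reach a p under 0.05, and none was made. A peak in all 3 Het libraries and in no KO library was found for Mrpl22, Mrpl49, Mrps14 and Mrps18c, in all 3 Het and 1 KO library for Mrpl28, Mrpl34, Mrpl57 and Mrpl58, and in all 3 Het and 2 KO libraries for Mrpl17 and Mrpl38. For 19 members there was none in any library.

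**Figure D5:**
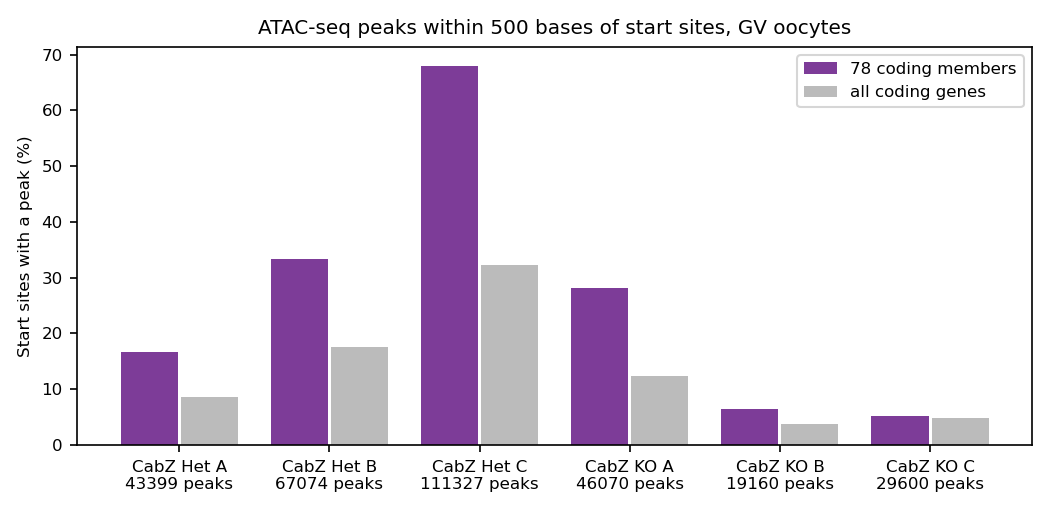
Percentage of the 78 coding members and of all coding genes with a deposited ATAC-seq peak within 500 bases of the start, in each CabZ Het and CabZ KO GV library. With all peaks taken, the members are above all genes in each library, by the least in KO library C (5.13% and 4.91%), and with peaks at a −log10 q of at least 5 no member has a peak in KO libraries B and C.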

How the data were processed

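RNA-seq was measured in 31 libraries and ATAC-seq in 6, and the labels gave each library its genotype or injected RNA, its stage and its number. Per the methods, the authors trimmed reads, aligned them to GRCm38 with STAR (2.5.3a in the submitters' processing notes) and adjusted them to FPKM. For ZH and Zscan4 OE libraries the authors deposited FPKM, computed over the whole gene span, with 0.01 or 0.001 added. The CabZ tables hold score values that are not FPKM: as the values show, the authors divided reads by the span 2 times, scaled libraries to a common total and added 0.01. This score was turned back into FPKM here by subtracting the minimum, multiplying by the span and scaling to the reads of the table, whereas the planned design had taken all tables as FPKM. How reads that fit several genes were counted, and whether strand was used, is not given in the sources used here. The ATAC-seq peak lists, aligned with Bowtie2 2.3 and called per library with MACS2 by the authors, hold a score, the fold enrichment ratio, and −log10 p-value and −log10 q-value as deposited; ratio and −log10 q were used here.

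Reads per gene were recovered from the smallest step of each library, and 85.0 to 89.4% of low values lay within 0.1 of a whole read. Read numbers are rounded, and PCR copies make counting error alone too small. limma 3.58.1 (R 4.3.3) was run on log2(FPKM + 1), 1 table at a time, over all genes that averaged 1 FPKM or more, without blocks, with Benjamini-Hochberg adjustment over all genes tested. The fit was tested on simulated data. Genes below that level got a two-sided exact permutation test. Coordinates and exons are of GENCODE M21 on GRCm38, and 76 or 77 of the 82 rows of each table have the same start and end there.

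The gene family and the lists were picked for description with earlier results of these data known, although the rule for the members uses the symbol alone. Named were the 8 largest rises and falls called in each comparison, the members with the highest and lowest levels, those called in several comparisons, a fixed set from Mrpl12 to Mrps18c, the pseudogenes, and the pathway genes. Mrpl46, Mrpl10, Mrpl13 and Mrpl42 in the Zscan4 OE comparison, Mrps15 and Mrps7, members under 1 FPKM, and the neighbours were named after their values were seen, and subunits and bacterial counterparts were assigned afterwards from general knowledge. Replicate numbers did not pair the libraries (correlations of same-numbered libraries from −0.456 to 0.501), and no 2 libraries agreed within sampling noise. Alternatives changed the pseudocount, filter, scaling, unit, block, trend and fold threshold, and left out each library in turn. 0 columns belonged to other samples.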

Additional observations from a re-analysis of the deposited data

Results flagged for a closer look

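Of 133 groups of libraries looked at for a library that stands apart, 4 had one, and chance alone gives about 1 in 20 groups. Mrpl16 was at 8.97 FPKM in ZH Het replicate 4, against 6.86 to 7.05 FPKM in the other ZH Het libraries. Mrps22 was at 5.893 FPKM in CabZ Het 2-cell replicate 1, against 11.3 to 11.97 FPKM in the others. Mrps33 was at 49.56 FPKM in CabZ KO 2-cell replicate 4, against 30.0 to 30.4 FPKM in the others. The summed family was at 5722 rpm in GFP replicate B, above the other GFP libraries, which lay between 5469 and 5506.

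Mrps26 and Mrps34 moved in opposite directions at the 2 stages of the CabZ line. Mrps26 was at 0.60 in KO GV oocytes and at −1.38 in KO 2-cell embryos, with every KO library above every Het library in oocytes and below in embryos. Mrps34 was at 0.94 and −1.55 in the same way. The difference between stages was not tested, because the tables were normalised separately.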

How the results depend on the processing

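No named member turned its called direction, and members not named were followed only through the counts. The small medians of CabZ oocytes and Zscan4 OE embryos took either sign when single libraries were left out. In CabZ oocytes, rises outnumbered falls in the main fit. At 5 FPKM or with the table values as they stand, falls outnumbered rises there (3 against 1). Shares of all genes called under the alternatives are not given. Beside the 23 higher and 8 lower calls in ZH oocytes, a minimum of 5 FPKM (50 members) gave 15 and 5 against 75 members, a fold change above 2 gave 4 and 3, and leaving out overlapping genes and pseudogenes, an alternative chosen after seeing the data, 10 higher. The median of 0.21 became 0.40 as rpm, 0.0612 with median scaling, 0.36 with FPKM rescaled to the table and 0.0525 without overlapping genes, while the median over all genes moved to 0.12 as rpm and −0.19 with median scaling. In CabZ oocytes, 5 higher and 2 lower of 76 became 1 higher at 5 FPKM (56 members), 1 with the table values as they stand (50), 1 without overlapping genes (40), and 0 and 0 at a fold above 2. In CabZ 2-cell embryos, 5 higher became 8 as rpm, 8 without a filter, 3 at 5 FPKM, 9 with median scaling, 9 with quantile normalisation, 2 at a fold above 2 and 1 without overlapping genes. The 46 lower calls of 70 members became 30 of 45 at 5 FPKM, 29 of 70 at a fold above 2, 27 of 36 without overlapping genes and 9 of 36 with the table values as they stand. The median of −0.92 became −0.68 with median scaling (all genes 0.13) and −0.25 with the table values (all genes 0.39), and as rpm the median over all genes was 0.18. Zscan4 OE embryos gave 0 and 0 throughout.

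Leaving out 1 library at a time gave 18 to 27 higher, 7 to 10 lower and a median of 0.17 to 0.26 in ZH oocytes, 2 to 5, 1 to 3 and −0.07 to 0.0022 in CabZ oocytes, 3 to 5, 41 to 49 and −1.01 to −0.83 in CabZ 2-cell embryos, and 0, 0 and −0.01 to 0.11 in Zscan4 OE embryos. Same-numbered libraries were not paired in the data, since 3 of 15 correlated best with their own number. With a replicate block, CabZ oocytes gave 2 higher calls, and no other count moved by more than 1.5 times. The named calls were also counted over every alternative, leaving aside the fold threshold and settings that did not test the gene. On this count 23 of 27 in ZH oocytes, 3 of 7 in CabZ oocytes and 17 of 29 in CabZ 2-cell embryos kept the call. At a −log10 q of at least 5, peaks stood at 1, 5 and 22 members in the Het and 3, 0 and 0 in the KO ATAC-seq libraries, where 0.506%, 2.74% and 12.6% and 1.98%, 0.246% and 0.287% of all coding genes had one. Where reads are few, as for Mrps34 in oocytes, counting error adds to the spread. The cause was not tested for any of these changes.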
